A study of Mus musculus with 24 samples.

Results

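DUX was switched on for 16 h in mouse embryonic stem cells labelled DUXBL-KO, and 2 libraries made with doxycycline (DOX) were compared with 2 libraries made without it. These 4 libraries were taken by their titles from the 24 of the series. All of them come from KH2, an embryonic stem cell line built for doxycycline-inducible transgenes, and all carry the DUX transgene that the titles call TRE_DUX. The group without DOX has the genotype DUXBL_KO and no treatment, and the group with DOX has the same genotype and DOX for 16 h. A matched pair of WT groups, each of 2 libraries, carries the same transgene and has no DOX or DOX for 16 h. Both DUXBL_KO groups bear the line number 1 in their titles, so the knockout and anything else that sets this 1 line apart cannot be told apart. Cells were kept in serum with LIF on gelatin or on growth-arrested mouse fibroblasts, and the labels do not say which for each library. RNA was depleted of ribosomal RNA and sequenced as strand-marked read pairs, and reads were counted per gene and per repeat subfamily.

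DUX is a transcription factor with paired DNA-binding homeodomains that is made in the mouse embryo when its own genome first becomes active, at the 2-cell stage. It binds the long terminal repeats of the endogenous retrovirus MERVL and the promoters of a set of genes that mark this stage, among them the Zscan4, Tcstv and Usp17l families. Embryonic stem cells enter a similar state rarely, and forced DUX drives many of them into it. DUXBL is a related homeobox protein, and the title of the series places it in the exit from this state. The comparison described here asks which genes and repeats DUX changed when cells carried the DUXBL knockout label.

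The induced gene followed the labels. Dux, listed as Duxf3, had 0 and 0 counts without DOX and 75 and 52 counts with DOX, so that the groups did not overlap. Its level was 0 and 0 CPM without DOX and 4.93 and 2.84 CPM with DOX (CPM, counts per 1000000 counts assigned to genes, after scaling). This was at least 24.1-fold higher with DOX, taking 3 counts as the floor (edgeR adjusted p = 0.00511). Transgene and endogenous transcripts cannot be told apart in this count. In WT, Duxf3 had 0 counts in both libraries without DOX and 23 and 20 counts with DOX, or 1.38 and 1.09 CPM. Dux was thus higher in both DUXBL-KO libraries with DOX than in either WT library with DOX, and the part of this in the differences from WT given below was not tested.

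The Duxbl counts do not show the knockout clearly. Duxbl1 had 16 and 6 counts without DOX and 169 and 91 counts with DOX in the libraries labelled DUXBL-KO, and Duxbl3 had 6 and 0 counts without DOX and 11 and 29 counts with DOX. In WT, Duxbl1 had 24 and 6 counts without DOX and 139 and 59 with DOX, and Duxbl3 had 4 and 8 without DOX and 33 and 6 with DOX. The counts of these 2 genes overlapped between the genotypes in both treatments. Duxbl2 had 0 counts in all 4 DUXBL-KO libraries, and in WT it had 4 and 0 without DOX and 0 and 6 with DOX, so it was at or near 0 in both genotypes. A knockout that leaves the transcript in place, or a count shared between copies, would not show here, and every direction given for DUXBL-KO rests on the label. The stem cell identity was visible in all 4 libraries: Pou5f1, the core pluripotency factor also called Oct4, had 799 and 833 CPM without DOX and 794 and 810.2 CPM with DOX.

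Depth differed little among the 4 libraries. Gene counts ranged from 15927101 to 19013264. Repeat subfamilies took 9.90% and 11.8% of all counts without DOX and 15.8% and 15.5% with DOX, a rise in both libraries. In the fit over the 8 WT and DUXBL-KO libraries the common spread between replicates was 17.6% (coefficient of variation). The labels do not say that replicates were separate cultures, so p-values measure the spread between these libraries, which may be technical.

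With DOX, 817 genes were higher and 72 were lower of 18060 tested (edgeR's quasi-likelihood test, Benjamini-Hochberg adjusted p under 0.05), so that 4.52% of tested genes were called higher and 0.399% lower (4.92% in all). Most of the higher genes were nearly silent without DOX. Of the 817 genes, 532 (65.1%) had at most 3 counts in both libraries without DOX. Of all 18060 tested genes 662 did, and the filter on low counts keeps such genes only through their counts in other libraries. Among these 532, the rise was at least 31.8-fold at the median and at least 2607-fold at the highest, in Zscan4-ps3. The other 285 rose by a median of 2.36 on the log2 scale. In a bulk library, more cells making a transcript and more transcript per cell cannot be told apart. Together the 817 genes took 0.990% and 0.958% of gene counts without DOX and 3.74% and 3.12% with DOX. The 72 lower genes fell by a median of 0.81 on the log2 scale, and 66 of them were protein coding. The number of calls depended on having 2 libraries per group: of 889 calls with all libraries, the number fell to 521 when replicate 1 of the DOX group was left out and to 575 when its replicate 2 was. It fell to 488 when replicate 1 of the untreated group was left out and to 516 when its replicate 2 was. The count of lower genes moved most: against 72 with all libraries, 34, 7, 21 and 20 lower genes were called in the same order, and 13 with only the DUXBL-KO groups in the fit. Other settings gave more, with 101 lower genes by DESeq2, 105 with repeats in the library sizes and 258 without the filter on low counts. A further setting, given in the closing section, called more still.

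**Figure D1:**
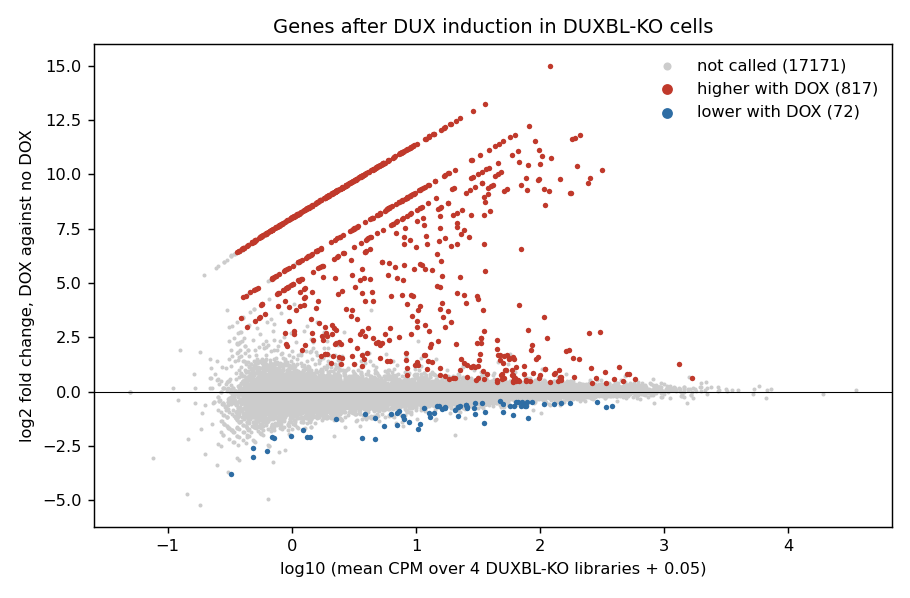
Each point is 1 of 18060 genes, with its mean level over the 4 DUXBL-KO libraries on the x axis (log10 of CPM + 0.05) and its fitted log2 fold change with DOX on the y axis. The 817 higher genes (red) reach far above the 72 lower genes (blue), and the slanted lines on the left are genes with 0 or a few counts without DOX, whose fitted change is not a bound.

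The higher genes differed in kind from the tested genes as a whole. Protein-coding genes made up 51.0% of the higher genes and 77.6% of the tested genes. Pseudogenes made up 26.2% of the higher and 6.59% of the tested genes, and lincRNAs 11.5% and 3.13%. Predicted genes with a Gm number were 50.9% of the higher and 17.2% of the tested genes. Many of these are copies of one another, and the counting of reads that match several copies is not stated, so the split of reads within a family is uncertain. In a look made after the values were seen, 14 of 26 tested olfactory receptor genes (Olfr) and 3 of 6 tested vomeronasal receptor genes (Vmn) were higher, while 4 of 384 tested genes of the name series Zfp were, beside 4.52% of all tested genes. These series were picked for their counts. A gene silent without DOX in DUXBL-KO was tested only where other libraries express it, so the filter bears on these shares. The counts are a description.

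The Zscan4 genes, which code for zinc finger proteins of the 2-cell embryo that guard telomeres, rose from almost nothing to the level of strongly expressed genes. All 6 listed members were called higher, of which Zscan4a is annotated as an unprocessed pseudogene. Zscan4c had 0.323 and 0.267 CPM without DOX and 499.7 and 298 CPM with DOX, a log2 fold change of 10.36 ± 0.68 (SE, edgeR adjusted p = 0.00125). Zscan4f had 0.215 and 0 CPM without DOX and 475 and 287 CPM with DOX, a log2 fold change of 11.70 ± 0.81 (adjusted p = 0.00125). That fold rests on 4 and 0 counts without DOX, and was 15.62 when replicate 1 without DOX was left out and 10.71 when replicate 2 was. Both libraries with DOX lay far above both without it, and DOX replicate 1 was higher than DOX replicate 2 for all of these copies. Zscan4a had 0.377 and 0.695 CPM without DOX and 777 and 485 CPM with DOX (log2 fold change 10.18 ± 0.65, adjusted p = 0.00125), and Zscan4d had 0.377 and 0.695 CPM without DOX and 634 and 368 CPM with DOX (log2 fold change 9.85 ± 0.69, adjusted p = 0.00125). The related copy Zscan4-ps3, named after its values were seen, had 0.0539 and 0.160 CPM without DOX and 512 and 327 CPM with DOX, at least 2607-fold higher. Per transcript length, Zscan4e averaged 483 TPM (transcripts per 1000000, from exon length) with DOX and Zscan4c 315 TPM, which placed them 165th and 267th among all genes.

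The promoters of several copies are shown because they hold the letters TGATTNAAT, a core of the sequence that DUX is known to bind. The windows are from RefSeq (GRCm38.p6), read 5′ to 3′ in the direction of the gene, and lie before its start. Capitals mark the match, which is on the opposite strand in Zscan4b.
Zscan4b, chr7:10905084-10905152, minus strand: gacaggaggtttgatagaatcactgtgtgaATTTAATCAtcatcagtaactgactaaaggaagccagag
Zscan4c, chr7:11005531-11005599, plus strand: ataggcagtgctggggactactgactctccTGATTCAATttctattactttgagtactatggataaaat
Zscan4f, chr7:11397724-11397792, plus strand: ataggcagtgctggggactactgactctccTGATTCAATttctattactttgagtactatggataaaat
BB287469, chr12:87816418-87816486, plus strand: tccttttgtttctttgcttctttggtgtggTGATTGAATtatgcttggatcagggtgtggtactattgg
Gm4027, chr12:87618709-87618777, plus strand: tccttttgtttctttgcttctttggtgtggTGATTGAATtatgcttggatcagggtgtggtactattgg
Gm21761, chr13:119913609-119913677, minus strand: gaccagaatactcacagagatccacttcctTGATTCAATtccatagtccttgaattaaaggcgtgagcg

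The windows of Zscan4c and Zscan4f were the same at all 69 positions, as were those of BB287469 and Gm4027, which belong to a cluster of higher genes on chromosome 12. Gm21761 lies in the Tcstv cluster on chromosome 13. The match begins 72 bases before the gene start in Zscan4b, 184 in Zscan4c, 161 in Zscan4f, 129 in BB287469, 170 in Gm4027 and 179 in Gm21761.

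In the promoter table (250 bases before to 50 after each start, both strands searched), 301 of the higher genes, 52 of the lower and 11408 of all tested genes had an entry. TGATTNAAT was found in 13 of the 301 higher genes (4.32%), Duxf3 itself among them, and in 52 of the 11408 tested genes (0.456%), which include the 13. It was in 236 of all 32851 promoters (0.718%) and in 0 of the 52 lower genes. Zscan4b, Zscan4c and Zscan4f were among the 13, while Zscan4a, Zscan4d and Zscan4e were not, for want of a match or of an entry. TGATTNAAT was 1 of 4 patterns searched. The other 3 were variants of the same site with 11 letters each and were in 0, 5 and 4 of the 301 higher genes, against 2, 15 and 18 of the tested genes. Near-identical copies are not independent of each other, so these shares are a description.

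The Tcstv and Tdpoz families, multicopy genes that mark the 2-cell state, behaved like Zscan4. Of 7 tested members, 6 were called higher, and all 7 had at most 3 counts in both libraries without DOX. Tcstv3 had 0.0539 and 0.107 CPM without DOX and 103 and 92.3 CPM with DOX, at least 606-fold higher (adjusted p = 0.00171). Tcstv1 had 0.0539 and 0.0534 CPM without DOX and 81.8 and 64.6 CPM with DOX, at least 455-fold higher (adjusted p = 0.00171). Tdpoz3, from a family of proteins with MATH and BTB domains, had 0.0539 and 0.107 CPM without DOX and 45.3 and 55.4 CPM with DOX, at least 313-fold higher (adjusted p = 0.00171). The remaining member, Tdpoz5, had 0 CPM in 3 libraries and 6.61 CPM in DOX replicate 2, and was not called (adjusted p = 0.451). Of the 6 called members, Tdpoz1 and Tdpoz3 were higher in DOX replicate 2 than in DOX replicate 1, and the others were higher in replicate 1.

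All 5 Usp17l genes, which code for ubiquitin-specific proteases, were called higher. Usp17lc had 0.215 and 0 CPM without DOX and 228 and 189 CPM with DOX (log2 fold change 10.83 ± 0.79, adjusted p = 0.00146), Usp17le had 0.646 and 0.481 CPM without DOX and 272 and 166 CPM with DOX (log2 fold change 8.59 ± 0.68, adjusted p = 0.00171), and Usp17ld had 0 and 0.107 CPM without DOX and 44.9 and 35.8 CPM with DOX, at least 251-fold higher. The fold of Usp17lc also rests on 4 and 0 counts, and was 14.75 when replicate 1 without DOX was left out and 9.84 when replicate 2 was. The summed level of the 5 was 0.855 to 1.02 CPM without DOX and 509 to 715 CPM with DOX. The Prame family was split. Pramef25 had 0.108 and 0 CPM without DOX and 208 and 154 CPM with DOX, at least 1124-fold higher (adjusted p = 0.00171), and Pramef17 and Pramef6 were at least 86.5-fold and 114-fold higher. Of 7 tested members 3 were called. At most 3 counts in both libraries without DOX were found in 4 of the 7, so a silent member was among those not called. Pramef8 and Pramef12, which were already made without DOX, were not called: Pramef8 had 30.8 and 28.9 CPM without DOX and 45.9 and 36.1 CPM with DOX (adjusted p = 0.170), and Pramef12 had 27.4 and 19.2 CPM without DOX and 25.7 and 16.8 CPM with DOX (adjusted p = 0.890).

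The 15 listed single 2-cell markers were all called higher, 10 of them from at most 3 counts in both libraries. Zfp352, a zinc finger gene on chromosome 4, had 0 and 0.0534 CPM without DOX and 125 and 104 CPM with DOX, at least 712-fold higher (adjusted p = 0.00171). Sp110, a nuclear body protein, had 0.323 and 0.428 CPM without DOX and 285 and 182 CPM with DOX (log2 fold change 9.25 ± 0.61, adjusted p = 0.00125). Tmem92, a membrane protein gene, had 0.108 and 0.214 CPM without DOX and 198 and 107 CPM with DOX (log2 fold change 9.82 ± 0.86, adjusted p = 0.00171). The 2 listed markers that stem cells already make, Nelfa and Ddit4l, changed less. Nelfa, a subunit of the complex that pauses RNA polymerase, had 63.4 and 69.7 CPM without DOX and 463 and 403 CPM with DOX (log2 fold change 2.7 ± 0.29, adjusted p = 0.00251), and Ddit4l had 9.32 and 11 CPM without DOX and 62.4 and 51.4 CPM with DOX (log2 fold change 2.48 ± 0.34, adjusted p = 0.00606, and 0.0546 when replicate 1 without DOX was left out). Of 8 tested homeobox genes of the cleavage embryo, Duxf3 alone was called by edgeR in the main fit, beside 4.52% of all tested genes called higher. Obox2 had 0 and 0.0534 CPM without DOX and 1.51 and 0.929 CPM with DOX (adjusted p = 0.0577), Obox3 had 0 and 0 CPM without DOX and 1.77 and 0.765 CPM with DOX (adjusted p = 0.173), and Duxbl1 had 0.862 and 0.321 CPM without DOX and 11.1 and 4.97 CPM with DOX (adjusted p = 0.0546). DESeq2 called Duxf3, Duxbl1 and Obox3 higher.

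**Figure D2:**
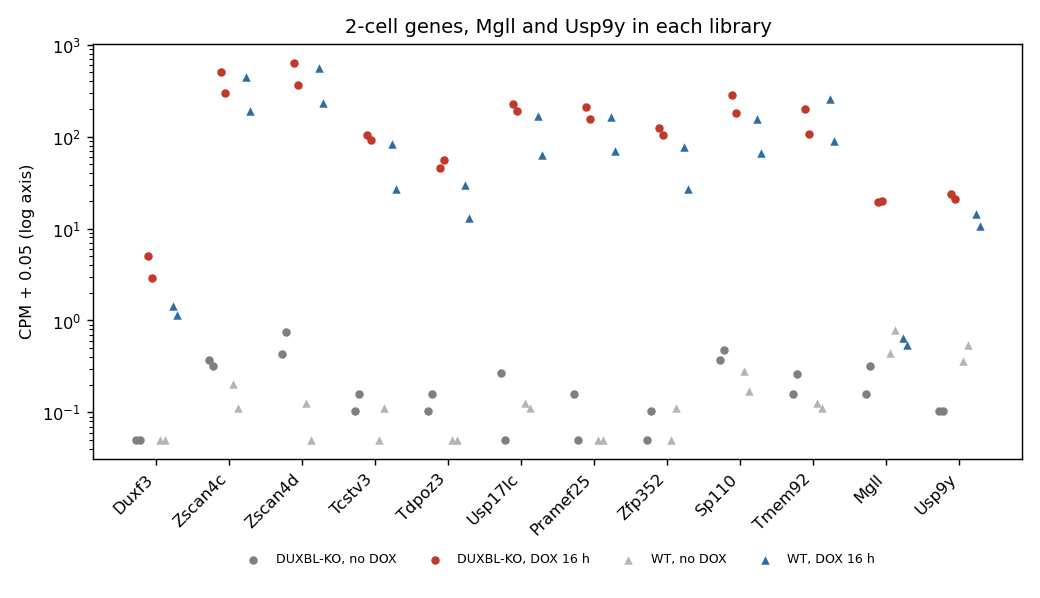
Level of each gene (CPM + 0.05, log axis) in every library, with circles for DUXBL-KO and triangles for WT, and 2 points per group. In DUXBL-KO each gene shown sits below 1 CPM without DOX and between 2.84 CPM (Duxf3) and 634 CPM (Zscan4d) with DOX, while Mgll stays below 1 CPM in all 4 WT libraries.

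Outside the listed families, the rule of smallest p gave further genes. Epm2a, which codes for the glycogen phosphatase laforin, had 0.700 and 0.534 CPM without DOX and 74.3 and 64.4 CPM with DOX (log2 fold change 6.79 ± 0.41, adjusted p = 0.00123). Aqp9, a channel for water and glycerol, had 0.162 and 0.214 CPM without DOX and 42.4 and 42.1 CPM with DOX (log2 fold change 7.76 ± 0.51, adjusted p = 0.00125). Colgalt2, a collagen galactosyltransferase, had 0.108 and 0.160 CPM without DOX and 39.8 and 38.6 CPM with DOX, at least 244-fold higher (adjusted p = 0.00125). The 2 libraries with DOX lay closer together for these 3 genes than for the Zscan4 copies and Usp17le. Usp9y, a deubiquitinase gene on the Y chromosome, had 0.0539 and 0.0534 CPM without DOX and 23.5 and 21.0 CPM with DOX, at least 138-fold higher (adjusted p = 0.000424). Mgll, which codes for the lipase that breaks down monoacylglycerols (chr6:88724412-88828360, GRCm38), had 0.108 and 0.267 CPM without DOX and 19.3 and 19.9 CPM with DOX, a log2 fold change of 6.65 ± 0.38 (adjusted p = 0.00120), or 7.38 when replicate 2 without DOX was left out.

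A second class of genes rose from a level that stem cells already have. Of 12211 genes with a mean of at least 50 counts without DOX, 131 were called higher, by a median of 1.11 on the log2 scale, and 62 lower. The genes named in this paragraph were chosen from the 131 after their values were seen. Cwc22, a splicing factor that loads the exon junction complex (chr2:77881159-77946375), had 74.9 and 79.8 CPM without DOX and 528 and 524 CPM with DOX (log2 fold change 2.76 ± 0.24, adjusted p = 0.00171). Dhtkd1, a mitochondrial enzyme of lysine breakdown, had 34.1 and 35.1 CPM without DOX and 201 and 187 CPM with DOX (log2 fold change 2.49 ± 0.23, adjusted p = 0.00174). Scamp1, a membrane protein of secretory carriers, had 18.4 and 20.7 CPM without DOX and 142 and 139 CPM with DOX (log2 fold change 2.84 ± 0.28, adjusted p = 0.00212). In each the 2 replicates of a group lay much closer to each other than to the other group.

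Other genes of this class changed by less. Ercc4, a nuclease of DNA repair, had 37.4 and 33.1 CPM without DOX and 142 and 124 CPM with DOX (log2 fold change 1.92). Aqr, a splicing helicase, had 272 and 274 CPM without DOX and 618 and 561 CPM with DOX (log2 fold change 1.11). Cbl, a ubiquitin ligase of growth factor receptors, had 232 and 229 CPM without DOX and 443 and 429.6 CPM with DOX (log2 fold change 0.92). Cand1, which exchanges the substrate adaptors of cullin ubiquitin ligases, had 352 and 376 CPM without DOX and 632 and 645 CPM with DOX (log2 fold change 0.81). The called gene with the highest level per length was Rplp0, a protein of the ribosomal stalk, with 1537 and 1379 TPM without DOX and 2212 and 2128 TPM with DOX (log2 fold change 0.60 ± 0.10, adjusted p = 0.0125, and up to 0.0982 when either library with DOX or replicate 2 without DOX was left out). It was not part of the ribosomal protein list, of which 0 of 85 tested members were called (edgeR, 6 at an unadjusted p under 0.05, and 0 by DESeq2).

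Most of the 72 lower genes changed by modest amounts from clear levels. A mean of at least 50 counts without DOX was reached by 62, and 30 fell by at least 1 on the log2 scale. The largest fall was 3.79, in Gm4869, from 0.539 and 0.481 CPM without DOX. Zfp365, a gene of genome stability, had 47.6 and 56.5 CPM without DOX and 20.9 and 17.2 CPM with DOX and fell by 1.45 ± 0.15 on the log2 scale (adjusted p = 0.00240). Mcam, a cell adhesion molecule, had 75.2 and 87.7 CPM without DOX and 39.5 and 37.5 CPM with DOX and fell by 1.08 ± 0.13 (adjusted p = 0.00343). Ptprv, a receptor-type tyrosine phosphatase, had 13.6 and 18.5 CPM without DOX and 5.19 and 4.42 CPM with DOX and fell by 1.74 ± 0.23 (adjusted p = 0.00514). In all 3 the groups were well apart. Mmrn2, a matrix protein of endothelium, had 13.7 and 17.8 CPM without DOX and 6.18 and 5.08 CPM with DOX (log2 fold change -1.49 ± 0.21, adjusted p = 0.00712), and Ptpn14, a phosphatase that restrains YAP, had 117 and 107 CPM without DOX and 58.2 and 38.3 CPM with DOX (log2 fold change -1.22 ± 0.19, adjusted p = 0.0120). Neurod1, a neuronal transcription factor, had 9.42 and 7.05 CPM without DOX and 3.29 and 2.24 CPM with DOX (log2 fold change -1.58 ± 0.25, adjusted p = 0.0119).

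Lpin1, an enzyme of lipid synthesis, fell by 0.93 ± 0.14 on the log2 scale, Prag1, a pseudokinase, by 0.80 ± 0.12, Rev1, a DNA polymerase for damaged templates, by 0.65 ± 0.10, and Tanc1, a scaffold protein, by 0.56 ± 0.08. These 10 are the lower genes with the smallest p under the naming rule. Of the 10, Zfp365, Mcam and Ptprv kept their call with any 1 library left out and with DESeq2. Against a log2 change of 1 instead of 0, 1 lower gene was called. The calls of the other 7 depended on single libraries, with adjusted p between 0.0568 (Mmrn2) and 0.0786 (Lpin1) at their highest. Leaving out replicate 2 with DOX ended the calls of Lpin1, Mmrn2, Neurod1, Prag1, Rev1 and Tanc1. Leaving out replicate 1 without DOX ended those of Lpin1, Neurod1, Prag1, Ptpn14, Rev1 and Tanc1, and leaving out replicate 2 without DOX those of Lpin1 and Rev1. With only the DUXBL-KO groups in the fit, the calls of Neurod1, Prag1 and Ptpn14 ended. Receptors and regulators of other pathways were also among the 72, named here after their values were seen. Notch1, the receptor, had 89.5 and 93.7 CPM without DOX and 65.4 and 65.8 CPM with DOX (log2 fold change -0.48 ± 0.08, adjusted p = 0.0164). Ptch1, the Hedgehog receptor, had 72.0 and 75.6 CPM without DOX and 52.4 and 53.3 CPM with DOX (log2 fold change -0.48 ± 0.10, adjusted p = 0.0305). Nr3c1, the glucocorticoid receptor, had 23.8 and 29.0 CPM without DOX and 14.6 and 15.0 CPM with DOX (log2 fold change -0.83 ± 0.14, adjusted p = 0.0154). Leaving out any 1 of the 4 libraries ended the calls of Notch1 and Ptch1, and leaving out any but replicate 1 without DOX ended that of Nr3c1, with adjusted p up to 0.114, 0.177 and 0.0982. All 3 calls also ended with only the DUXBL-KO groups in the fit.

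Genes that the tumour suppressor p53 switches on formed a list of 20, of which 19 were tested. Of these 19, 3 were called lower, beside 0.399% of all genes tested, and 0 higher. An unadjusted p under 0.05 was reached by 12 of the 19, and 17 had a lower mean with DOX. Their median change was -0.47 on the log2 scale, against -0.01 over all genes tested. Zmat3, an RNA-binding protein, had 205 and 209.7 CPM without DOX and 152 and 131 CPM with DOX and fell by 0.55 ± 0.09 (adjusted p = 0.0161). Phlda3, which restrains AKT, had 30.1 and 34.8 CPM without DOX and 19.8 and 18.4 CPM with DOX and fell by 0.76 ± 0.14 (adjusted p = 0.0228). Cdkn1a, the cell cycle inhibitor p21, had 18.3 and 19.4 CPM without DOX and 13.1 and 10.6 CPM with DOX and fell by 0.67 ± 0.14 (adjusted p = 0.0452).

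The other 16 did not pass edgeR's test. Bbc3, a killer protein of the BCL2 family, had 19.6 and 20.9 CPM without DOX and 10.3 and 6.61 CPM with DOX, and its log2 value of -1.27 was the lowest of the list (adjusted p = 0.0643). Mdm2, the ligase that degrades p53, had 117 and 144 CPM without DOX and 99.8 and 89.5 CPM with DOX and a log2 value of -0.46, near the median of the list (adjusted p = 0.124). Pmaip1, another killer protein, had 72.2 and 76.1 CPM without DOX and 111 and 88.8 CPM with DOX and was the highest of the list with a log2 value of 0.43 (adjusted p = 0.300). DESeq2 called 6 of the 19 lower: Bbc3, Polk, Cdkn1a, Zmat3, Eda2r and Phlda3. The edgeR calls were lost without any 1 of the 4 libraries for Cdkn1a and Phlda3, and without 3 of the 4 for Zmat3 (all but DUXBL-KO with DOX replicate 1), with adjusted p up to 0.245, 0.141 and 0.102. All 3 calls were also lost with only the DUXBL-KO groups in the fit. Outside the list, and named after their values were seen, Mdm4, an inhibitor of p53, had 389 and 462 CPM without DOX and 258 and 256 CPM with DOX (log2 fold change -0.73 ± 0.14, adjusted p = 0.0298), and Trp73, a relative of p53, had 10.9 and 9.83 CPM without DOX and 4.47 and 2.79 CPM with DOX (log2 fold change -1.52 ± 0.27, adjusted p = 0.0189). Their adjusted p rose to as much as 0.162 and 0.0907: any 1 library left out ended the call of Mdm4, and any but replicate 1 with DOX that of Trp73, whose call also ended with only the DUXBL-KO groups in the fit.

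**Figure D3:**
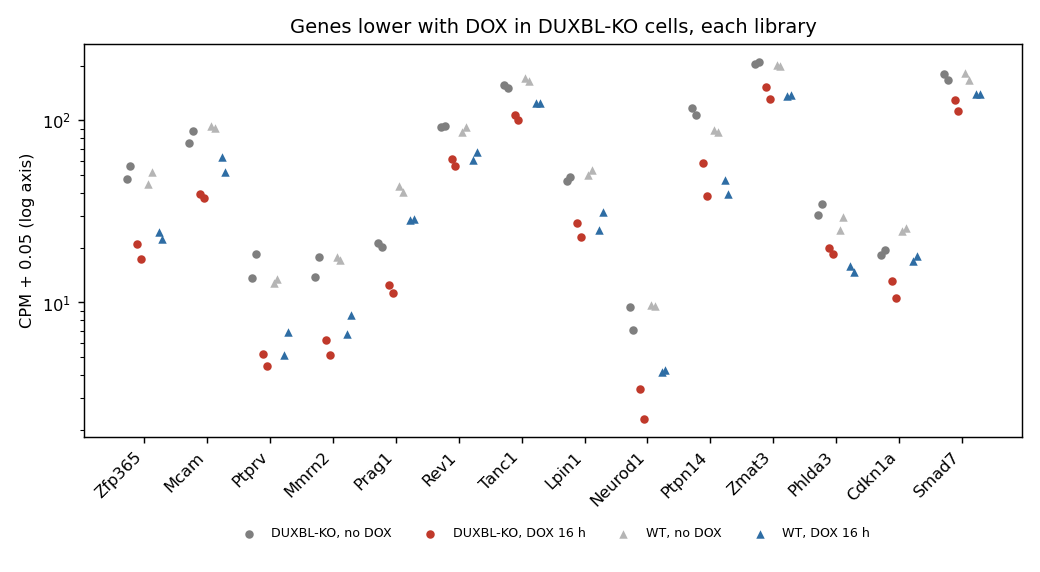
Level of 14 genes called lower with DOX in DUXBL-KO (CPM + 0.05, log axis) in every library, with circles for DUXBL-KO and triangles for WT. For each gene both red circles (DUXBL-KO with DOX) lie below both dark grey circles (DUXBL-KO without DOX), for example 20.9 and 17.2 against 47.6 and 56.5 CPM for Zfp365.

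The pluripotency programme was not detectably changed at this sample size. None of 19 tested pluripotency genes was called by edgeR or by DESeq2, and 2 had an unadjusted p under 0.05. Nanog had 505 and 352 CPM without DOX and 613 and 464 CPM with DOX (adjusted p = 0.591), and Sox2 had 353 and 312 CPM without DOX and 312 and 288 CPM with DOX (adjusted p = 0.611). Zfp42, also called Rex1, had 292 and 349 CPM without DOX and 275 and 362 CPM with DOX (adjusted p = 0.994), Tfcp2l1, a naive-state factor, had 1599 and 1292 CPM without DOX and 1442 and 1203 CPM with DOX (adjusted p = 0.761), and Pou5f1 had a log2 value of -0.03 (adjusted p = 0.941). The list's median change was -0.04 on the log2 scale (-0.19 without replicate 1 with DOX and -0.18 without replicate 2 without DOX), and its members ranged from -0.35 (Utf1) to 0.60 (Dppa3). The groups overlapped in all of these 5 genes but Sox2, where they nearly touched.

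Among 27 genes that repress or promote the 2-cell state, Dppa2 alone was called by edgeR in the main fit. More were called in a setting given in the closing section. Dppa2, an activator of Dux in stem cells, had 94.4 and 92.9 CPM without DOX and 167 and 175 CPM with DOX (log2 fold change 0.87 ± 0.15, adjusted p = 0.0157, and up to 0.102 with 1 library left out, where any 1 of the 4 ended the call). Trim28, the scaffold of retrovirus silencing, had 2105 and 1601 CPM without DOX and 2735 and 2271 CPM with DOX (adjusted p = 0.255, and 0.00249 without the filter on low counts, where it passed). Trim24 had 218 and 186 CPM without DOX and 221 and 215 CPM with DOX (adjusted p = 0.790), and Trim33 had 142 and 144 CPM without DOX and 139.5 and 145 CPM with DOX (adjusted p = 0.989). The median of the 27 was 0.11 on the log2 scale (0.057 without replicate 1 and 0.059 without replicate 2 of the untreated libraries). Uhrf1, a cofactor of DNA methylation, had 529.6 and 460.2 CPM without DOX and 665 and 643 CPM with DOX (adjusted p = 0.0605) and was called higher by DESeq2.

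Most histone genes had a higher mean with DOX, and few passed the test in the main fit. More passed in a setting given in the closing section. Of 70 tested, 4 were called higher by edgeR and 7 by DESeq2, beside 4.52% of all tested genes called higher by edgeR, and 0 lower. An unadjusted p under 0.05 was reached by 32 of the 70, against 2524 of all 18060 genes. Of the 70, 68 had a higher mean with DOX, and the median was 0.31 on the log2 scale (0.19 without replicate 2 with DOX and 0.43 without its replicate 1), against -0.01 over all genes. Hist4h4 had 55.6 and 50.9 CPM without DOX and 88.3 and 99.2 CPM with DOX (log2 fold change 0.82 ± 0.11, adjusted p = 0.00598). Hist1h2ad had 16.3 and 15.1 CPM without DOX and 24.2 and 23.9 CPM with DOX (log2 fold change 0.62 ± 0.12, adjusted p = 0.0260), and Hist1h2be had 113 and 128 CPM without DOX and 166 and 184 CPM with DOX (log2 fold change 0.54 ± 0.10, adjusted p = 0.0275). Without 1 library the adjusted p rose to as much as 0.0608 for Hist4h4 (lost without replicate 2 of either group), 0.207 for Hist1h2ad and 0.202 for Hist1h2be (lost without any 1 of the 4). With only the DUXBL-KO groups in the fit, the calls of Hist1h2ad and Hist1h2be were lost, and without the filter on low counts that of Hist1h2ad. Histone genes are near-identical copies, so their split is uncertain.

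Stress and signalling lists held single calls by edgeR, beside 4.52% of all tested genes called higher and 0.399% called lower. Of 17 tested genes of the integrated stress and unfolded protein responses, Dnajb9, a chaperone of the endoplasmic reticulum, was called higher: it had 10.2 and 9.83 CPM without DOX and 22.7 and 19.3 CPM with DOX (log2 fold change 1.07 ± 0.19, adjusted p = 0.0196). Of 20 signalling genes, Smad7, the inhibitor of TGF-beta signalling, was called lower: it had 181 and 166 CPM without DOX and 129 and 112 CPM with DOX (log2 fold change -0.53 ± 0.10, adjusted p = 0.0298). Either call was lost without any 1 of the 4 libraries, with adjusted p up to 0.131 and 0.178, and that of Smad7 also with only the DUXBL-KO groups in the fit. DESeq2 called Dnajb9 as well, and 2 signalling genes lower, Smad7 and Skil, a repressor of TGF-beta signalling. Of 20 genes of glycolysis and cholesterol synthesis, 0 were called by edgeR, 1 had an unadjusted p under 0.05, and DESeq2 called 1 higher, Dhcr7, a late enzyme of cholesterol synthesis.

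Other basic programmes gave 0 calls by edgeR in the main fit and by DESeq2. Of 25 cell cycle genes 3 had an unadjusted p under 0.05 (median 0.09 on the log2 scale), with -0.0024 for Mki67 and 0.11 for Top2a. Of 20 nucleolar genes 6 did (median 0.13), with 0.03 for Ncl and 0.12 for Npm1, and of 20 splicing genes 3 did (median 0.09), with 0.26 for Hnrnpa1 and -4.1e-05 for Prpf8. Of 29 mitochondrially encoded genes 2 did (median -0.09), with -0.13 for mt-Rnr1 and 0.09 for mt-Rnr2. Of 5 tested interferon-response genes none did (median -0.22), with -0.22 for Ddx58. These medians moved with single libraries: with 1 library left out, the cell cycle median reached -0.011 (without replicate 2 with DOX), the interferon median 0.015 (without replicate 1 with DOX), the splicing and mitochondrial medians 0.018 and -0.0069 (without replicate 2 with DOX), and the nucleolar median 0.059 (without replicate 2 without DOX). Among the abundant members of other lists the log2 values were 0.16 for Gapdh, 0.19 for Pkm (from 0.0033 to 0.33 with 1 library left out), 0.04 for Rpl4, 0.16 for Rps2 and -0.19 for Tet1.

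None of the markers of other cell types tested was called by edgeR in the main fit or by DESeq2. The summed level of 10 primitive endoderm markers was 444 to 483 CPM without DOX and 445 to 456 CPM with DOX, most of it from Lama1 (log2 value 0.06) and Lamb1 (-0.21), and 0 of 8 tested had an unadjusted p under 0.05. The summed level of 10 trophoblast markers was 97.6 to 102 CPM without DOX and 76.5 to 83.0 CPM with DOX, and 0 of 7 had an unadjusted p under 0.05. Their median log2 value was -0.35, and it was -0.17 without replicate 1 and -0.80 without replicate 2 of the untreated libraries. Tead4 had a log2 value of -0.35 (from -0.72 to -0.082 with 1 library left out) and Tfap2c of -0.46 (from -0.85 to -0.093). For 12 primed and germ-layer markers the sums were 82.3 to 89.7 and 79.4 to 79.8 CPM, with log2 values from -1.77 (T) to 0.81 (Nes) and -0.11 for Foxd3. Of the 10 tested, 7 were lower, the median was -0.52 (-0.26 without replicate 1 without DOX), and 1 had an unadjusted p under 0.05. The 18 fibroblast markers, relevant because feeder cells may have been present, summed to 47.2 to 70.9 CPM without DOX and 56.6 to 88.9 CPM with DOX. Col3a1, Postn and Lum had 0 counts in all 4 libraries. S100a6 had 7.76 and 29.2 CPM without DOX and 7.75 and 36.2 CPM with DOX, so replicate 2 of both groups was the higher one, and Col5a1 had 20.2 and 13.1 CPM without DOX and 20.6 and 18.9 CPM with DOX. Of 11 tested, 1 had an unadjusted p under 0.05.

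A larger share of repeat subfamilies than of genes was called higher. Of 981 repeat subfamilies tested, 287 were called higher (29.3%) and 0 lower (0 lower by DESeq2 as well, which called 276 higher), and 788 had a higher mean with DOX. Repeat subfamilies are groups of near-identical copies scattered over the genome, each counted here as 1 feature. The median change over all 981 was 0.32 on the log2 scale, against -0.01 for genes. This median fell to 0.16 when replicate 1 of the untreated DUXBL-KO libraries was left out, and it was 0.49 when replicate 2 was. Against a log2 change of 1 in place of 0, 36 of 981 subfamilies and 613 of 18060 genes were called higher, so the shares were then close. Among the 287, the median was 1.05, and 159 changed by at least 1. With 1 library left out the number of calls was 136 (replicate 1 with DOX), 186 (replicate 2 with DOX), 113 (replicate 1 without DOX) or 327 (replicate 2 without DOX).

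MERVL took most of the rise. MERVL-int, the internal part of the retrovirus that DUX is known to activate, had 185 and 239 CPM without DOX and 37436 and 33661 CPM with DOX, a log2 fold change of 7.39 ± 0.45 (edgeR adjusted p = 0.000328). MT2_Mm, its long terminal repeat, had 65.5 and 78.3 CPM without DOX and 8159.8 and 7422 CPM with DOX (log2 fold change 6.76 ± 0.43, adjusted p = 0.000328). Together they made up 0.229% and 0.242% of repeat counts without DOX and 23.2% and 21.6% with DOX, and 59.0% of the net gain in repeat CPM. Relatives of MERVL rose less. MERVL_2A-int had 119 and 143 CPM without DOX and 1023 and 913 CPM with DOX (log2 fold change 2.89), MT2C_Mm had 37.6 and 45.6 CPM without DOX and 148 and 128 CPM with DOX (log2 fold change 1.73), and the sparse MLT2E had 0.215 and 0.160 CPM without DOX and 8.54 and 8.96 CPM with DOX (log2 fold change 5.49). Of 95 tested ERVL subfamilies 26 were called (27.4%), a share near the 29.3% of all subfamilies.

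**Figure D4:**
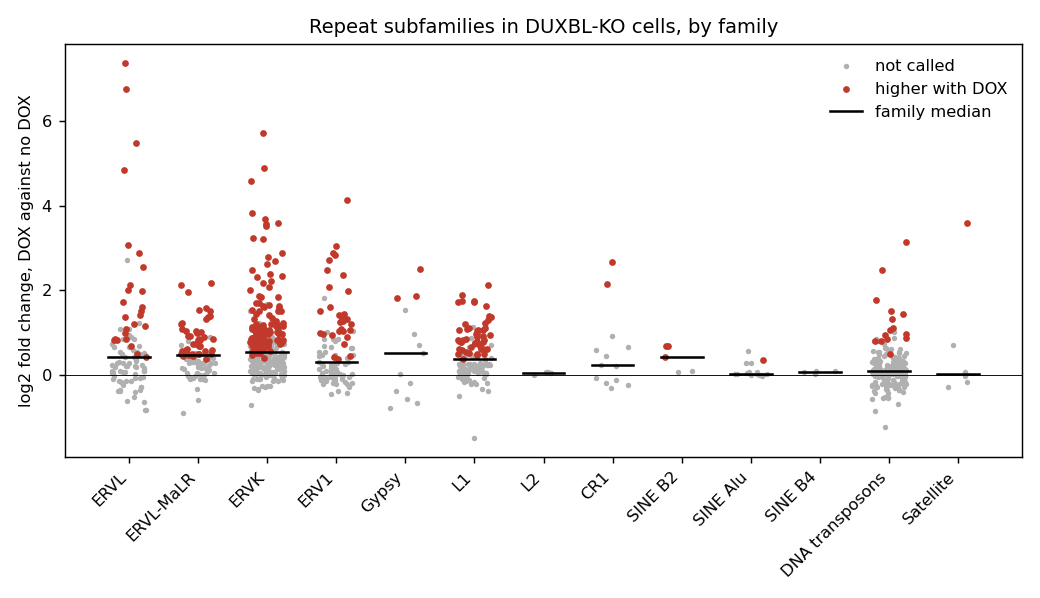
Each point is 1 repeat subfamily, placed by family, with its log2 fold change with DOX in DUXBL-KO on the y axis, red where called higher, and a bar at the family median. MERVL-int (7.39) and MT2_Mm (6.76) are the highest points of the ERVL family, while the medians of the ERVL, ERVL-MaLR, ERVK and L1 families lie between 0.37 and 0.53.

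The other long terminal repeat families contributed many subfamilies at lower folds. ERVK had 109 of 270 called, ERVL-MaLR 42 of 90 and ERV1 31 of 106, against 29.3% of all subfamilies. In ERV1, RLTR6B_Mm had 10.9 and 12.7 CPM without DOX and 264 and 153 CPM with DOX (log2 fold change 4.14 ± 0.46, adjusted p = 0.00284), and MuRRS-int had 11.4 and 13.5 CPM without DOX and 90.2 and 87.3 CPM with DOX (log2 fold change 2.83). In ERVK, ERVB4_1B-I_MM-int had a log2 fold change of 2.68, and IAPLTR4 had 1.29 and 0.909 CPM without DOX and 15.5 and 13.3 CPM with DOX (log2 fold change 3.70). The abundant IAPEz-int, the internal part of the intracisternal A particle, had 415 and 615 CPM without DOX and 777 and 933 CPM with DOX (log2 fold change 0.73 ± 0.21, adjusted p = 0.0335). Its libraries spread widely and the call was lost without 1 of 3 libraries (either library with DOX, or without DOX replicate 1), with adjusted p up to 0.168, and with only the DUXBL-KO groups in the fit. Its log2 value was 0.45 without replicate 1 without DOX.

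In ERVL-MaLR, ORR1A1-int had 61.9 and 80.9 CPM without DOX and 333 and 295 CPM with DOX (log2 fold change 2.14), ORR1A3 had 65.5 and 77.3 CPM without DOX and 156 and 132 CPM with DOX (log2 fold change 1.01), MT-int had a log2 fold change of 2.16 and MLT1L of 1.97. MTA_Mm, which is active in oocytes, had 483 and 536 CPM without DOX and 713 and 685 CPM with DOX (log2 fold change 0.46 ± 0.10, adjusted p = 0.0159, up to 0.110 without 1 of 3 libraries: either with DOX, or without DOX replicate 1). Several further ERVK and ERV1 subfamilies with the smallest p followed the same direction, among them ERVB4_3-I_MM-int (log2 fold change 2.87) and MER89 (2.35). Gypsy-like repeats had 3 of 13 called (23.1%), a share not above the 29.3% of all subfamilies. They were MamGypLTR3 (2.50), MamGypLTR3a (1.86) and LTR104_Mam (1.82), and the call of the last ended when replicate 1 of either group was left out.

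LINE1 elements, which copy themselves through RNA, had 50 of 129 subfamilies called (38.8%), against 29.3% of all subfamilies. Among them Lx2A had 9.91 and 9.35 CPM without DOX and 46.2 and 37.7 CPM with DOX (log2 fold change 2.12) and Lx3A had 39.2 and 49.5 CPM without DOX and 141 and 134 CPM with DOX (log2 fold change 1.63), and Lx2A1 had a log2 fold change of 1.89. L1Md_F2, named after its values were seen, had 1349 and 1756 CPM without DOX and 3028 and 2886 CPM with DOX (log2 fold change 0.93). L1Md_T and L1Md_A were not called: L1Md_T had 3454 and 3606 CPM without DOX and 4440.4 and 3749 CPM with DOX (adjusted p = 0.276), and L1Md_A had 844 and 1436 CPM without DOX and 1581 and 1646 CPM with DOX (adjusted p = 0.277), with its DUXBL-KO libraries without DOX far apart. L1Md_A passed in 2 alternatives, with an adjusted p of 0.000127 without the filter on low counts.

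The short B2 elements, transcribed by RNA polymerase III and also found inside many transcripts, had 3 of 5 subfamilies called, against 29.3% of all, at small changes from high levels. B2_Mm1a had 5703 and 5317 CPM without DOX and 9319.8 and 8413 CPM with DOX (log2 fold change 0.69 ± 0.21, adjusted p = 0.0487), B2_Mm1t changed by 0.68 ± 0.18 (adjusted p = 0.0284) and B2_Mm2 by 0.43 ± 0.11 (adjusted p = 0.0251). B1_Mm, the 1 called of 16 Alu-like subfamilies, had 949 and 1146 CPM without DOX and 1324 and 1355 CPM with DOX (log2 fold change 0.36 ± 0.10, adjusted p = 0.0383). None of these 4 calls held when each library was left out in turn: B2_Mm1a and B2_Mm1t were lost without any 1 of the 4, B2_Mm2 and B1_Mm without any but replicate 2 without DOX, with adjusted p up to 0.200, 0.142, 0.148 and 0.237. The call of B1_Mm also ended with only the DUXBL-KO groups in the fit and with repeats in the library sizes, and its log2 value was 0.20 without replicate 1 without DOX. That of B2_Mm1a also ended with repeats in the library sizes and with a filter at a mean of 10 counts. The major satellite GSAT_MM, the repeat of the DNA around centromeres, had 38.6 and 24.6 CPM without DOX and 522 and 238 CPM with DOX (log2 fold change 3.59 ± 0.71, adjusted p = 0.0101, 0.0553 when replicate 1 without DOX was left out, and a log2 fold change of 2.90 when replicate 1 with DOX was), and was the 1 called of 6 satellites. Its 2 libraries with DOX lay far apart, both above those without DOX. DNA transposons, mostly ancient, had 15 of 186 called (8.06%), below the 29.3% of all, with MER63C (1.78), Charlie24 (1.32) and Zaphod2 (2.49) the 3 with the smallest p. Leaving out replicate 1 without DOX ended the calls of Charlie24 (adjusted p = 0.0586) and Zaphod2 (0.0800). CR1 elements had 2 of 13 called (15.4%), X7C_LINE (2.66) and X2_LINE (2.14). Of 34 subfamilies outside these families 4 were called, among them RMER1A (1.01), RMER1B (0.86) and RMER1C (0.62), the last with adjusted p up to 0.0907 when any library but replicate 2 without DOX was left out.

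The higher genes lay partly in clusters. Joining called genes with gaps of at most 200000 bases gave 20 clusters of 5 or more, which held 202 (24.7%) of the 817. The one with the most members was chr12:87480108-88333125 (GRCm38), where 38 of 40 tested genes were higher, among them BB287469, a relative of the translation initiation factor Eif1a, with 0 and 0.0534 CPM without DOX and 74.6 and 55.2 CPM with DOX. On chr3:93628640-94266784, 22 of 24 tested genes were higher, among them Tdpoz1 to Tdpoz4. On chr1:84990638-85851576, 13 of 17 were, with Sp110 and Sp140. The Tcstv genes lie in chr13:119827961-120318178 with 13 of 14 tested genes higher, the Zscan4 genes in chr7:10794242-11614112 with 12 of 12, and the Prame genes in chr4:143458378-143994369 with 12 of 12. By chromosome, 9.04% of tested genes on chromosome 12 and 8.38% on chromosome 13 were higher, against 1.04% on chromosome 15 and 4.52% overall. Copies within a cluster share sequence, so their counts are not independent. Copies silent without DOX in DUXBL-KO were tested only where other libraries express them.

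Set beside WT, the DUXBL-KO response covered nearly all of the WT one. DOX gave 517 higher and 21 lower genes in WT, 2.86% and 0.116% of those tested (2.98% in all). The 2 comparisons share no library but share 1 estimate of the spread. Of the 817 genes higher in DUXBL-KO, 513 were also called in WT, which is 62.8% of the DUXBL-KO list and 99.2% of the WT list. Of the 72 lower genes, 17 were also called in WT (23.6% of one list and 81.0% of the other). The WT count rests on its libraries: of 538 calls in both directions, 1 was left with only the WT groups in the fit. Leaving out an untreated WT library gave 117 (replicate 1) or 2 (replicate 2), and leaving out a DOX-treated one gave 395 (replicate 1) or 641 (replicate 2). Whether the effects themselves differ is a separate test, given below.

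Genes called in DUXBL-KO and not in WT mostly had a fitted effect of the same sign in WT. Of the 304 higher genes not called in WT, 301 had a higher fitted level with DOX there too. All 55 lower genes not called in WT had a lower fitted level there. A further set of 8 libraries comes from 2 WT lines that also carry TRE_DUX and bear the label pLV2, which the labels do not explain. There 2803 genes were higher and 3342 lower with DOX (15.5% and 18.5% of those tested, with 2695 and 2069 by DESeq2). That fit shared its estimate of the spread with the pLV2 libraries labelled TRIM24KO and TRIM33KO. With only the WT groups in it, 3108 genes were higher and 2654 lower. The titles put 4 of the 8 WT pLV2 libraries under DOX while their treatment tags give none, and the titles were followed. Of the 299 of these 304 that were tested there, 286 were higher. Of all 812 DUXBL-KO higher genes tested there 795 were higher, and of 70 lower genes 46 were lower and 0 higher.

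The DOX effect itself was tested for a difference between DUXBL-KO and WT, and 0 of 18060 genes (0.0%) passed edgeR's adjusted threshold. At an unadjusted p under 0.05 there were 97, and the lowest adjusted p was 0.142. DESeq2 called 1 gene, Mgll. Mgll had 0.388 and 0.729 CPM without DOX and 0.600 and 0.492 CPM with DOX in WT, with both WT groups under 1 CPM, against 19.3 and 19.9 CPM in DUXBL-KO with DOX. Its DOX effect was 6.72 ± 0.61 higher in DUXBL-KO on the log2 scale (edgeR adjusted p = 0.142, DESeq2 adjusted p = 1.15e-10). In WT pLV2 its log2 fold change with DOX was 2.59. Over the alternatives the edgeR adjusted p of this difference ran from 4.47e-16 without the filter on low counts to 0.99996 without WT without DOX replicate 2.

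The next differences by p, among genes of the naming rule, were smaller. Usp9y rose from 0.310 and 0.486 CPM to 14.5 and 10.5 CPM in WT, and its DOX effect was 3.60 ± 0.63 higher in DUXBL-KO, where it started from 1 count in each library (adjusted p = 1.000). Hist1h2ao had 28.4 and 22.6 CPM without DOX and 40.3 and 42.8 CPM with DOX in DUXBL-KO and 49.4 and 61.8 CPM without DOX and 45.1 and 37.0 CPM with DOX in WT (difference 1.14 ± 0.24, adjusted p = 1.000). Limch1, an actin-linked protein, had 1.94 and 1.55 CPM without DOX and 40.2 and 41.9 CPM with DOX in DUXBL-KO and 5.28 and 3.89 CPM without DOX and 39.2 and 15.9 CPM with DOX in WT (difference 1.96 ± 0.60). Fgf1, a growth factor, had 2.21 and 3.53 CPM without DOX and 46.1 and 50.1 CPM with DOX in DUXBL-KO and 3.03 and 4.07 CPM without DOX and 28.0 and 17.2 CPM with DOX in WT (difference 1.41 ± 0.43). In the opposite direction the smallest p under the rule belonged to Hdac11, a histone deacetylase, with 3.50 and 5.24 CPM without DOX and 2.23 and 2.62 CPM with DOX in DUXBL-KO and 3.72 and 4.86 CPM without DOX and 5.88 and 6.67 CPM with DOX in WT (difference -1.39 ± 0.38). It was followed by Gm19368, Cd38, Rps10-ps2 and Tchh, with differences of -5.06 ± 1.81, -0.51 ± 0.20, -0.90 ± 0.36 and -1.06 ± 0.43. None of these differences had an adjusted p under 0.05 in the 8-library fit. Without the filter on low counts, Limch1 (adjusted p = 0.00012) and Hist1h2ao (adjusted p = 0.0115) passed.

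Over all 18060 genes the median difference in DOX effect between DUXBL-KO and WT was 0.01 on the log2 scale. WT with DOX replicate 2 had the weakest response: the 817 genes took 1.98% of its gene counts, against 3.11% in WT with DOX replicate 1 and 3.74% and 3.12% in DUXBL-KO. Zscan4c had 0.155 and 0.0607 CPM without DOX and 449 and 189 CPM with DOX in WT, and Tcstv3 had 0 and 0.0607 CPM without DOX and 83.4 and 27.0 CPM with DOX. For Zscan4c, WT replicate 1 with DOX lay between the 2 DUXBL-KO libraries, so the groups overlapped. For Tcstv3 both WT libraries lay below both DUXBL-KO libraries, and the Dux counts given above moved the same way.

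**Figure D5:**
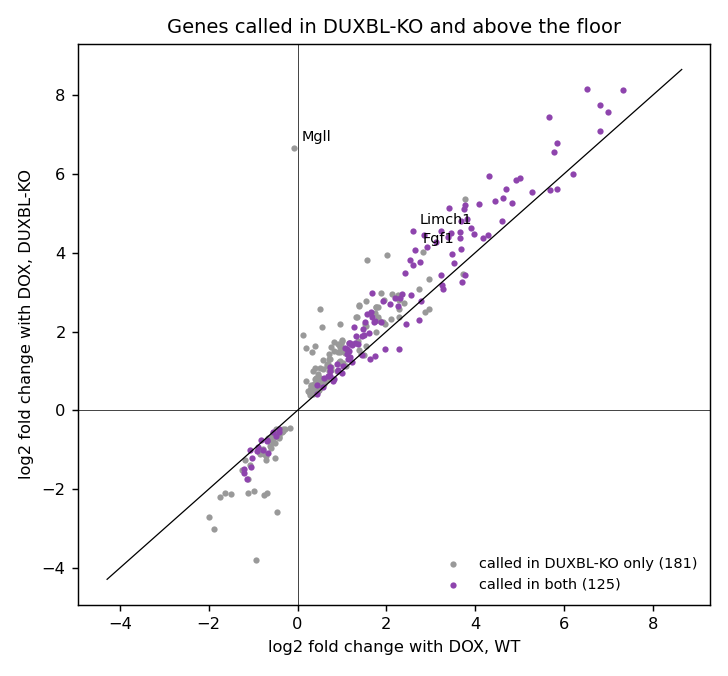
Log2 fold change with DOX in WT (x axis) and DUXBL-KO (y axis) for the 306 genes called in DUXBL-KO and above 3 counts without DOX in at least 1 library of each genotype. Purple marks the 125 also called in WT, the line marks equal change, and Mgll stands apart near 0 on the x axis and 6.65 on the y axis.

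For repeats the picture was alike. In WT 88 subfamilies were called higher (8.97%) and 0 lower, and all 88 were among the 287 of DUXBL-KO, where they made up 30.7%. The WT count was 24 and 168 without replicate 1 and replicate 2 with DOX, 2 without either library without DOX, 35 with only the WT groups in the fit and 138 by DESeq2. The interaction was passed by 0 of 981 subfamilies (0.0%) with edgeR and by 0 with DESeq2, with 18 at an unadjusted p under 0.05. MERVL-int had 141 and 148 CPM without DOX and 22999.7 and 9902 CPM with DOX in WT (log2 fold change 6.83 ± 0.44, difference 0.55 ± 0.48), and MT2_Mm had 49.3 and 55.2 CPM without DOX and 5505 and 2358 CPM with DOX (difference 0.53 ± 0.48). Both WT libraries with DOX lay below both DUXBL-KO libraries for MERVL-int, and WT replicate 2 was the lowest at 9902 CPM. Of all 981 subfamilies, 756 had a larger fitted effect in DUXBL-KO, with a median difference of 0.16 on the log2 scale. That lean rests on 1 library: the median difference was -0.013 without DUXBL-KO without DOX replicate 1 and 0.31 without its replicate 2. Among the 287 it was 273, but these were chosen by their call in DUXBL-KO, so this count is a description. Of the 287, 285 were also higher in WT pLV2, where 75.4% of 965 tested subfamilies were higher and 0.518% lower. MERVL-int and MT2_Mm made up 18.2% and 9.18% of repeat counts in WT with DOX.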

How the data were processed

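The deposited tables hold raw counts, as whole numbers, for 55487 genes and 1146 repeat subfamilies per library, per the file headers. The submitters' processing notes name bcl2fastq 2.20.0, cutadapt 1.18, STAR 2.7.6a and mm10. The counting tool, its strand setting and its rule for multimapping reads are not given in the sources used here. Symbols and positions are from GENCODE M21 (GRCm38): 54349 IDs matched with their version, 792 without it and 346 not at all. Promoter sequences are from RefSeq (GRCm38.p6).

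Groups follow the sample titles. In 8 pLV2 libraries the treatment tag goes against the title, and none of them is in the DUXBL-KO or plain WT groups. In the main fit, the 8 plain libraries (4 groups of 2) were fitted together with edgeR 4.0.16 in R 4.3.3. It used filterByExpr by group, TMM factors and library sizes from gene counts, glmQLFit and glmQLFTest (2-sided). P-values were adjusted by Benjamini-Hochberg over all 18060 genes or 981 repeat subfamilies, with a threshold of 0.05. The 16 pLV2 libraries, which include those labelled TRIM24KO and TRIM33KO beside the WT ones, were fitted apart, and both WT pLV2 lines averaged. CPM use effective gene library sizes, also for repeats. Errors beside log2 fold changes are standard errors. A group with at most 3 counts in each library is at the floor, and folds against it are lower bounds from 3 counts per library. These lower bounds allow for counting error only.

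The 24 gene lists, the naming rule and the members were chosen with earlier results of these data known. The rule names a fixed set, the 10 rising and 10 falling genes of smallest p (mean count 50 or more, no predicted or overlapping genes), 3 called members per list or repeat family (2 of highest mean where none was called), and 5 genes per direction of the interaction. DESeq2 1.42.0 and the other alternatives are in the closing section. The method was tested on simulated data. Some genes under this rule are not reported here.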

Additional observations from a re-analysis of the deposited data

How the results depend on the processing

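Leaving out 1 library gave 488 to 575 gene calls and 113 to 327 repeat calls in DUXBL-KO, 2 to 641 and 2 to 168 in WT, and 0 to 0 for both tests of the difference between DUXBL-KO and WT. Without the filter on low counts, 1501 genes were called in DUXBL-KO (1243 higher and 258 lower, 889 in all with it), 1083 genes (538) and 208 repeat subfamilies (88) in WT, and 11 genes, Limch1 and Hist1h2ao among them, and 4 repeat subfamilies for the difference (0 and 0). Testing against a log2 change of 1 left 613 higher and 1 lower gene and 36 repeat calls in DUXBL-KO (287) and 11 in WT. With only the WT groups in the fit, 1 gene and 35 repeat subfamilies were called in WT. DESeq2 called 138 repeat subfamilies in WT and 1 gene, Mgll, for the difference. Why these counts moved was not tested.

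Same-numbered libraries deviated together in all 6 pairs of groups (correlations from 0.31 to 0.68 over 18060 genes, 0.68 for the 2 DUXBL-KO groups). The labels do not say what a number marks, and there are 2 of them, so the samples are taken to share only a number. A replicate block gave 1536 gene calls in DUXBL-KO (1214 higher and 322 lower), and in WT 929 gene and 152 repeat calls. Among those higher in DUXBL-KO were 20 of 70 histone genes and 3 of the 27 regulators of the 2-cell state (Dppa2, Uhrf1 and Trim28). So were 4 of 8 homeobox genes of the cleavage embryo, 3 nucleolar and 2 cell cycle genes. Among those lower were 7 p53 targets, 1 mitochondrially encoded gene and 1 trophoblast marker.

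Of 106 called genes and subfamilies named, 72 kept their call in every alternative run for single features, which left out the test against a log2 change of 1. Over 1272 alternative values 116 lost the call and 0 reversed. Of 288 alternative values of gene list medians 11 changed sign, and 13 moved by more than the median standard error of the list's members. Of 573 alternative values of 48 features that were not called, 33 changed sign and 29 passed the threshold. Mki67 was 0.00091 on the log2 scale without the filter, Ncl -0.011 and Rpl4 -0.00358 with repeats in the library sizes, and Prpf8 0.0013 with DESeq2, 0.0013 with RLE size factors, 0.00095 without the filter and 0.0018 with the replicate block. With 1 library left out, log2 values ranged across 0 or to it for Trim24 (-0.037 to 0.20), Trim33 (-0.058 to 0.012), Zfp42 (-0.24 to 0.17), Mki67 (-0.14 to 0.093), Top2a (-0.079 to 0.26), Col5a1 (-0.064 to 0.57), S100a6 (-1.27 to 1.47), Ddx58 (-0.53 to 0.11), mt-Rnr2 (-0.048 to 0.19), Ncl (-0.061 to 0.092), Tfcp2l1 (-0.30 to 0.0097), Lama1 (-0.16 to 0.23), Lamb1 (-0.61 to 0.17), Rpl4 (-0.00803 to 0.041), Prpf8 (-0.12 to 0.067), Pramef12 (-0.48 to 0.12) and Tdpoz5 (0.0 to 9.82); these features have no direction here. With 2 libraries per group, small changes could not be detected at this spread.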
